A study of Mus musculus with 10 samples.

Results

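The circadian clock genes described here are the 10 rows of the kidney count matrix that carry the symbols Arntl, Clock, Per1, Per2, Per3, Cry1, Cry2, Nr1d1, Nr1d2 and Dbp. All 10 symbols were found among 24062 genes, and all 10 were among the 15547 genes that passed the expression filter. The libraries are polyadenylated RNA of whole kidneys from adult male mice, 10 in all. The KO group holds 4 C57BL/6N animals that lack Ehhadh, a peroxisomal enzyme of fatty acid β-oxidation. Single animals of the strains 129S2_SvPasCrl and DBA_2J, both wild type for Ehhadh, gave 1 library each. The WT group holds 4 C57BL/6N animals that are wild type for Ehhadh. The KO allele, exact ages, feeding and the hour at which kidneys were taken are not given in the sources used here, and nothing says that KO and WT animals were littermates. With no hour given, no phase is assigned to any animal, and p-values set group differences only against the spread between these animals.

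The mammalian clock is a feedback loop of transcription that runs in nearly every cell, kidney tubule cells included. CLOCK pairs with ARNTL (also called BMAL1), and the pair binds E-box sequences and switches on the Per, Cry, Nr1d and Dbp genes. PER and CRY proteins gather in complexes that hold CLOCK and ARNTL back. NR1D1 and NR1D2 (REV-ERB proteins) repress Arntl through ROR elements, where ROR proteins activate it. DBP and its relatives TEF and HLF activate genes through D-box sequences, Per3 among them, and NFIL3 represses through the same sequences. In mouse tissues Arntl, Npas2, Cry1 and Nfil3 therefore peak many hours apart from Nr1d1, Nr1d2, Dbp, Tef and the Per genes. In the kidney the clock is known for daily rhythms of salt and water transport.

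The promoter sequences that hold the loop's binding motifs are shown because the results compare activators, repressors and targets that these motifs join. RefSeq windows (GRCm38.p6) reach from 250 bases before to 50 bases after a start site. They were held for 9 of the 10 genes, in 13 windows, and 6 of the genes had at least 1 match on either strand to the E-box CACGTG, the related CACGTT, the D-box TTATGTAA or TTACGTAA, or the ROR element core TAGGTCA. Over all 32851 windows of the same length, 7.15% held CACGTG, 4.68% CACGTT, 1.06% a D-box and 2.61% TAGGTCA. None of these 4 motifs overlapped another in the windows shown. A match is a description of the letters, not proof of binding. The 250 bases before the start of Per3 (chr4:151044666-151044915, minus strand), of Cry1 (chr10:85185055-85185304, minus strand) and of Per1 (chr11:69098699-69098948, plus strand) and a 30-base stretch at the start of 1 Arntl transcript (chr7:113207529-113207558, plus strand) follow, written 5′ to 3′ with motif matches in capitals.
Per3 promoter: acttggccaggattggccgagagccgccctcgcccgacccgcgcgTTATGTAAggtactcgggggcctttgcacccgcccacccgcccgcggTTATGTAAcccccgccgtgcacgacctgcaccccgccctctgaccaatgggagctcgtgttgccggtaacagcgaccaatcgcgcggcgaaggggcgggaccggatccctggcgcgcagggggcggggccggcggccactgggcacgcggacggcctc
Cry1 promoter: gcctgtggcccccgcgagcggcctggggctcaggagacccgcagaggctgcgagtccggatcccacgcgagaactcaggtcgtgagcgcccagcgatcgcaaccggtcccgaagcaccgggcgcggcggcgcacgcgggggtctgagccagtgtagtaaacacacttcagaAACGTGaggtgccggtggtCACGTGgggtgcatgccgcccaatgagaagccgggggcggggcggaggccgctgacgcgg
Per1 promoter: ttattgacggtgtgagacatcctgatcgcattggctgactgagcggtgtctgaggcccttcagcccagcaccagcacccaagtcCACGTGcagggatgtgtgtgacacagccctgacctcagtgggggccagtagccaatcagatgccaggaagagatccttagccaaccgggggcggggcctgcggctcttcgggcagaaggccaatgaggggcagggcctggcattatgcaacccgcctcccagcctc
Arntl start region: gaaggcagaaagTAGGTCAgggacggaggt
Per3 carried 2 D-boxes of identical letters, which start 205 and 158 bases before its transcription start. Cry1 carried CACGTG at 60 bases and, on the opposite strand, CACGTT (read here as AACGTG) at 79 bases before its start. Per1 carried 1 CACGTG at 166 bases before its start. Arntl carried TAGGTCA from base 31 after 1 of its start sites. Cry2 and Nr1d1 each held 1 CACGTT on the opposite strand, at 166 and 28 bases before their starts.

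Depth ran from 41.5 to 52.3 M counts in KO libraries, was 51.2 M in 129S2_SvPasCrl and 57.3 M in DBA_2J, and ran from 19.8 to 36.0 M in WT libraries. Ehhadh itself read 176 to 327 CPM (counts per M of the scaled library total) in KO, 788 CPM in 129S2_SvPasCrl, 795 CPM in DBA_2J and 2078 to 3398 CPM in WT, so every KO library matched its label. The summed level of 4 proximal tubule markers was 8324 to 10043 CPM in KO and 9461 to 10085 CPM in WT, which fits the label of kidney. In bulk tissue, fewer cells of a type and less RNA per cell cannot be told apart. Summed injured tubule markers (3 of 3 read) ran from 35.7 to 83.9 CPM in KO, with the highest value in KO replicate 4, were 65.6 CPM in 129S2_SvPasCrl and 6.15 CPM in DBA_2J, and ran from 3.67 to 8.89 CPM in WT. Havcr1 made up most of the KO replicate 4 sum, at 75.1 CPM, and of the 129S2_SvPasCrl sum, at 62.8 CPM. Of the other markers in 129S2_SvPasCrl, Lcn2 (2.67 CPM) lay inside the WT range and Krt20 (0.119 CPM) below it. Adrenal cortex markers stayed at 3.57 to 5.96 CPM in KO and 5.03 to 6.22 CPM in WT. Some sample titles open with an E, those of KO replicates 3 and 4 and WT replicates 3 and 4, and the titles of the other 4 C57BL/6N animals do not. The labels do not say what the E marks. The number that follows in the title is shared by KO replicates 1 and 2, by WT replicates 1 and 2 and by WT replicates 3 and 4, differs between KO replicates 3 and 4, and is never shared by KO and WT, so whatever it marks cannot be told apart from genotype.

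Between KO and WT kidneys none of the 10 clock genes passed the test. Dbp, Per2, Per3 and Arntl varied far more between animals of 1 genotype than between the genotype means. The widest spread in KO came from replicate 4, in which Dbp, Per2, Per3, Cry2 and Nr1d2 were the highest of the group and Arntl the lowest. WT replicates 3 and 4 stood above WT replicates 1 and 2 for Per2, Per3, Cry2, Nr1d2 and Dbp, and below them for Arntl. Nr1d1 and Clock were close to level across the 8 animals. In edgeR's quasi-likelihood test 0 of 10 clock genes were called at an adjusted p under 0.05, where 11.0% of all tested genes were called. At an unadjusted p under 0.05 there was 1 gene of the 10, Per1, beside 26.0% of all tested genes, and DESeq2 called it (adjusted p = 0.0440). The KO and WT ranges overlapped for all 10 genes, while 17.8% of all tested genes had ranges that did not overlap. The median log2 fold change of the 10 genes was −0.05, beside −0.01 over all tested genes.

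Per unit of gene length, which allows levels to be compared between genes, Nr1d1 had the highest group mean at 48.2 ± 4.18 reads per kilobase per M (RPKM) in KO and 49.4 ± 3.27 RPKM in WT (SD, n = 4 each). Dbp followed with 28.2 ± 25.9 RPKM in KO and 33.1 ± 15.1 RPKM in WT. In single animals the order of this pair could turn, with 66.9 RPKM of Dbp and 54.2 RPKM of Nr1d1 in KO replicate 4 and 51.9 RPKM of Dbp and 47.9 RPKM of Nr1d1 in WT replicate 4. Next came Nr1d2 with 20.7 RPKM in KO and 18.7 RPKM in WT and Per1 with 20.5 RPKM in KO and 14.6 RPKM in WT. Dbp, Nr1d2 and Per1 did not differ from each other beyond their spread in KO, where the range of Dbp alone covered the means of both others. Cry2, Clock, Per3 and Per2 formed a close group between 5.11 and 6.62 RPKM in KO and between 5.46 and 6.27 RPKM in WT, within the spread of each other. Arntl averaged 3.43 RPKM in KO and 3.61 RPKM in WT. Cry1 was the lowest, at 0.825 RPKM in KO and 0.866 RPKM in WT.

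**Figure D1:**
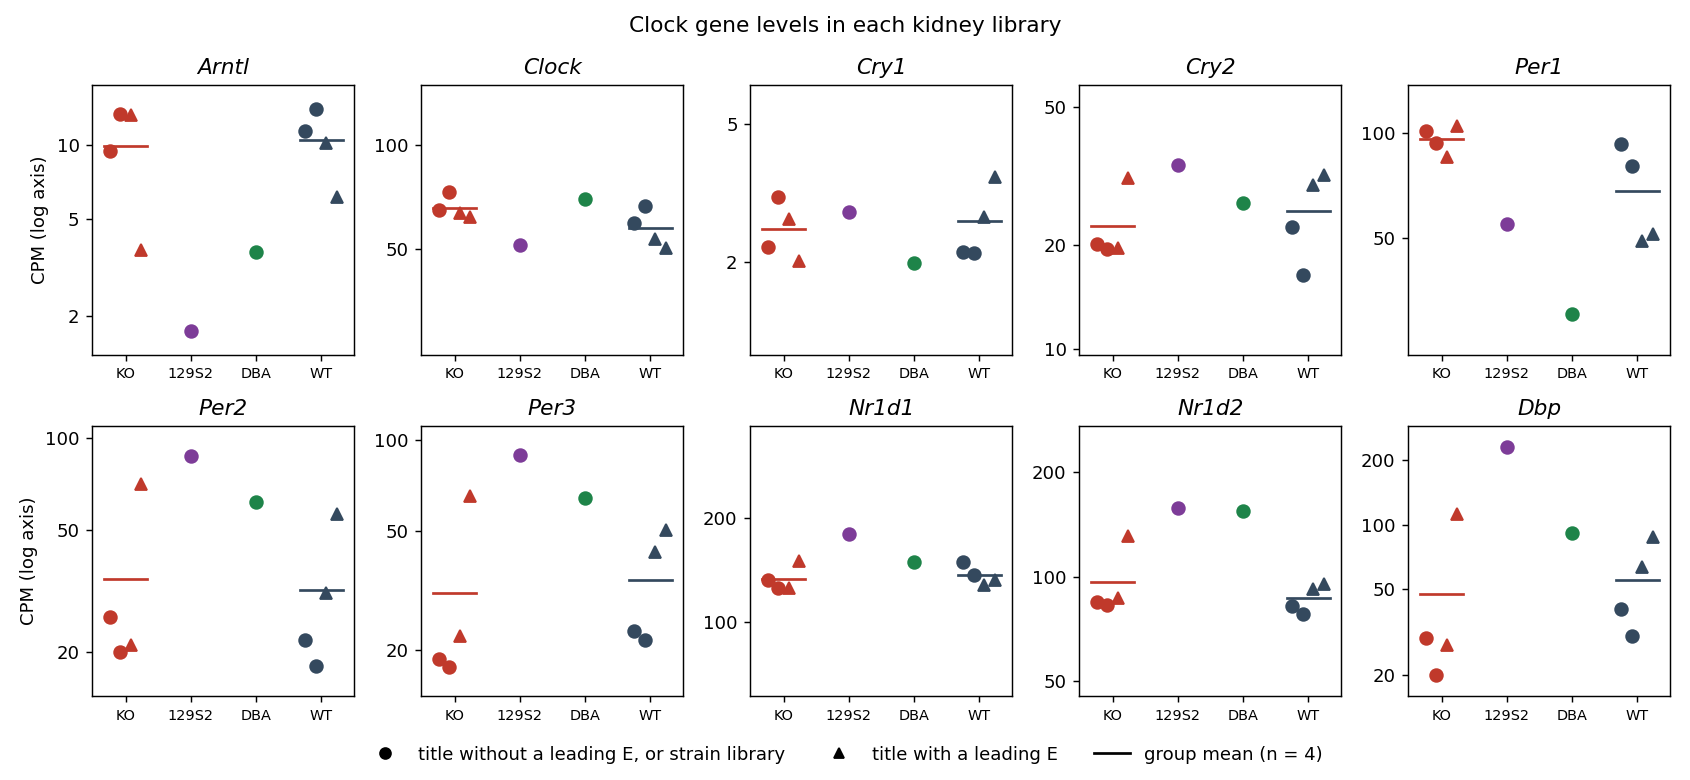
CPM on a log axis for the 10 clock genes in every library, in the order KO, 129S2_SvPasCrl, DBA_2J, WT; each point is 1 animal, triangles are titles with a leading E, and a line is the mean of 4 animals. KO and WT points overlap in every panel, and KO replicate 4, the last KO triangle, stands at 112 CPM of Dbp where the other KO animals lie between 20.0 and 29.6 CPM.

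Arntl (mm10, chr7:113207465-113314126, plus strand) encodes the activator that every loop of the clock depends on. It read 9.49, 13.4, 13.3 and 3.74 CPM in KO replicates 1 to 4, 1.74 CPM in 129S2_SvPasCrl, 3.65 CPM in DBA_2J, and 11.5, 14.1, 10.2 and 6.14 CPM in WT replicates 1 to 4. KO replicate 4 was the lowest KO animal and WT replicate 4 the lowest WT animal, and both strain libraries lay below all 8. The mean and SD of the 4 animals were 9.98 ± 4.54 CPM for KO and 10.5 ± 3.33 CPM for WT, a log2 fold change of −0.07 (SE 0.35, edgeR adjusted p = 0.926). Clock (chr5:76209868-76304792, minus strand), the partner of Arntl, read 64.6, 73.1, 63.4 and 61.9 CPM in KO, 51.2 CPM in 129S2_SvPasCrl, 69.8 CPM in DBA_2J, and 59.4, 66.4, 53.6 and 50.4 CPM in WT. The highest and lowest animal differed by only 1.18-fold in KO and 1.32-fold in WT. Its log2 fold change was 0.19 (SE 0.09, 95% interval −0.00 to 0.39, edgeR adjusted p = 0.197).

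Per1 (chr11:69098956-69109957, plus strand), a repressor of the loop that is also induced quickly by glucocorticoids and other signals, was the clock gene nearest to a call. It read 102, 93.5, 85.2 and 105 CPM in KO, 54.8 CPM in 129S2_SvPasCrl, 30.1 CPM in DBA_2J, and 93.3, 80.3, 48.8 and 51.1 CPM in WT. The KO animals were all between 85.2 and 105 CPM, whereas the WT animals fell into a higher pair without the E and a lower pair with the E in their titles. The mean was 96.5 ± 8.98 CPM in KO and 68.4 ± 21.9 CPM in WT, a log2 fold change of 0.50 (SE 0.18, 95% interval 0.10 to 0.90). The edgeR p was 0.0193 before and 0.107 after adjustment. Per1 passed in edgeR with title form as a term (0.55, adjusted p = 0.0285), among the 4 animals with the E alone (0.93, adjusted p = 0.0375), and without WT replicate 1 (0.69, adjusted p = 0.0308). Over the 8 fits that left out 1 animal each, its adjusted p ranged from 0.0308 to 0.241. Among the 4 animals without the E the log2 fold change was 0.17 (edgeR adjusted p = 0.240).

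Per2 (chr1:91415982-91459328, minus strand), a repressor that mice need for a stable rhythm, read 26.0, 20.0, 21.0 and 71.0 CPM in KO, 87.7 CPM in 129S2_SvPasCrl, 62.0 CPM in DBA_2J, and 21.9, 17.9, 31.1 and 56.6 CPM in WT. KO replicate 4 and WT replicate 4 were the high animals of their groups, and KO spanned 3.55-fold and WT 3.16-fold. The means of 34.5 ± 24.5 CPM in KO and 31.9 ± 17.4 CPM in WT differed by a log2 fold change of 0.11 (SE 0.43, edgeR adjusted p = 0.909). Per3 (chr4:151003655-151044665, minus strand), the Per gene with the D-boxes printed above, read 18.7, 17.6, 22.4 and 64.9 CPM in KO, 88.9 CPM in 129S2_SvPasCrl, 64.1 CPM in DBA_2J, and 23.2, 21.6, 42.3 and 50.3 CPM in WT. The same KO animal was high, and WT replicates 3 and 4 were both above WT replicates 1 and 2. Its log2 fold change was −0.16 (SE 0.41, 95% interval −1.07 to 0.75, edgeR adjusted p = 0.856), from means of 30.9 ± 22.8 CPM in KO and 34.3 ± 14.2 CPM in WT.

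Cry1 (chr10:85131700-85185054, minus strand), the stronger repressor of the CRY pair, read 2.21, 3.07, 2.65 and 2.01 CPM in KO, 2.79 CPM in 129S2_SvPasCrl, 1.99 CPM in DBA_2J, and 2.13, 2.12, 2.69 and 3.51 CPM in WT. KO replicate 4 was the lowest KO animal and WT replicate 4 the highest WT animal. The log2 fold change was −0.08 (SE 0.22, edgeR adjusted p = 0.856), and Cry1 had the lowest counts of the 10 genes. Cry2 (chr2:92403647-92434069, minus strand) read 20.1, 19.4, 19.6 and 31.1 CPM in KO, 33.9 CPM in 129S2_SvPasCrl, 26.4 CPM in DBA_2J, and 22.5, 16.4, 29.7 and 31.8 CPM in WT. KO replicate 4 stood apart from the other KO animals, and WT replicates 3 and 4 stood above the other two. Its log2 fold change was −0.16 (SE 0.21, edgeR adjusted p = 0.691). Cry2 shares 149 exon bases (3.72% of its length) with D930015M05Rik, which read 1.30 to 2.77 CPM over the 10 libraries, and the counting gave such reads to both genes.

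Nr1d1 (chr11:98767932-98775377, minus strand), the main repressor of Arntl, was the most even clock gene. It read 133, 126, 125 and 149.9 CPM in KO, 179.9 CPM in 129S2_SvPasCrl, 149 CPM in DBA_2J, and 149, 136, 128 and 132 CPM in WT. The highest animal was 1.20-fold above the lowest in KO and 1.16-fold in WT, and the log2 fold change was −0.04 (SE 0.07, 95% interval −0.19 to 0.12, edgeR adjusted p = 0.808). Nr1d2 (chr14:18204056-18239106, minus strand), the second REV-ERB gene, read 84.7, 82.7, 86.7 and 131 CPM in KO, 158 CPM in 129S2_SvPasCrl, 155 CPM in DBA_2J, and 82.1, 77.8, 92.3 and 95.3 CPM in WT. KO replicate 4 lay above every other C57BL/6N animal, and the strain libraries lay above it. The log2 fold change was 0.15 (SE 0.14, edgeR adjusted p = 0.554).

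Dbp (chr7:45705247-45710203, plus strand), the output factor under direct control of CLOCK and ARNTL, had the widest range. It read 29.6, 20.0, 27.6 and 112 CPM in KO, 229 CPM in 129S2_SvPasCrl, 91.5 CPM in DBA_2J, and 40.4, 30.5, 63.8 and 87.1 CPM in WT. KO replicates 1 to 3 lay below every WT animal and KO replicate 4 above every WT animal. The means of 47.4 ± 43.4 CPM in KO and 55.5 ± 25.3 CPM in WT gave a log2 fold change of −0.23 (SE 0.50, 95% interval −1.33 to 0.86, edgeR adjusted p = 0.819). Without KO replicate 4 the log2 fold change was −1.11 (SE 0.30, edgeR adjusted p = 0.0419), so the call on Dbp rests on whether that animal is in the fit. Without each of the other 7 animals in turn the value ran from −0.43 to 0.07, with an edgeR adjusted p of 0.677 or more. Dbp shares 539 exon bases (32.1% of its length) with Sphk2 on the opposite strand, and the counting set no strand, so part of its reads cannot be assigned. Sphk2 read 76.2, 73.8, 73.9 and 103 CPM in KO, 141 CPM in 129S2_SvPasCrl, 108 CPM in DBA_2J, and 96.2, 89.9, 108 and 106 CPM in WT, so it was also highest in KO replicate 4 among KO animals, over a much narrower range than Dbp. How much of the Dbp count came from Sphk2 was not tested.

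**Figure D2:**
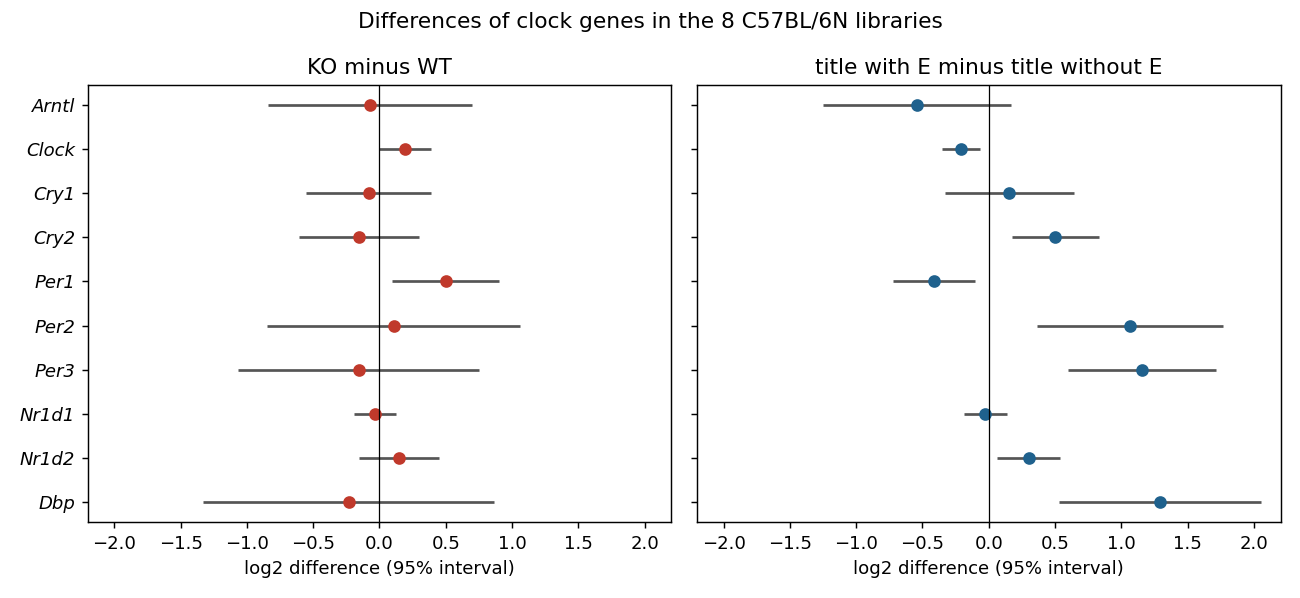
Fitted log2 difference and 95% interval of each clock gene in the 8 C57BL/6N libraries, for KO minus WT on the left and for titles with a leading E minus titles without it on the right. On the left the intervals of Dbp, Per2 and Per3 are the widest and those of Nr1d1 and Clock the narrowest; on the right Per2, Per3 and Dbp lie above 1 and Per1 lies below 0.

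Title form was tested with genotype in the same model, because it is the only label that divides both genotypes. The log2 difference, with the E minus without it, was 1.06 for Per2 (SE 0.32, edgeR adjusted p = 0.244), 1.15 for Per3 (SE 0.25, edgeR adjusted p = 0.130) and 1.29 for Dbp (SE 0.34, edgeR adjusted p = 0.196). Cry2 had a difference of 0.50 and Nr1d2 of 0.30, while Arntl had −0.54, Per1 −0.41 and Clock −0.21. None of the 10 genes passed after adjustment in edgeR, where 0.0193% of all tested genes did, and DESeq2 called Per3 (adjusted p = 0.0477). At an unadjusted p under 0.05 there were 7 of 10 clock genes, 5 with higher and 2 with lower values in animals with the E, beside 11.6% of all tested genes. Several of these genes varied together between the same animals, so the 7 are not separate results. Without KO replicate 3 edgeR called Per2, Per3, Cry2 and Dbp, in a fit that called 140 genes in all against 3 with every animal, and without any other single animal it called none of the 10. Without KO replicate 4 the log2 differences were 0.64 for Per2, 0.75 for Per3, 0.73 for Dbp, 0.15 for Nr1d2 and −0.28 for Arntl, and without KO replicate 3 Arntl had −1.02. Animals of 1 form and genotype still differed, as KO replicates 3 and 4 both carry the E and read 27.6 and 112 CPM of Dbp.

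Whether the genotype difference itself varied with title form was tested as an interaction. In edgeR 0 of 10 clock genes were called, as were 0% of all tested genes, with 1004 genes at an unadjusted p under 0.05. Per1 had the largest interaction of the 10 relative to its error, at 0.75 on the log2 scale (SE 0.16, edgeR adjusted p = 0.384), and DESeq2 called it (adjusted p = 0.0134). Per1 averaged 95.3 CPM in KO and 50.0 CPM in WT among animals with the E, and 97.7 CPM in KO and 86.8 CPM in WT among animals without it. The KO means of both forms lay close together, and the WT mean was lower in animals with the E.

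The spread between animals of 1 genotype was widest for 4 of the 10 clock genes. Pooled over both groups, the SD of log2 CPM was 0.91 for Dbp, 0.79 for Per2, 0.76 for Per3 and 0.71 for Arntl, beside a median of 0.15 over all tested genes. These values were larger than those of 98.8% of tested genes for Dbp, 97.7% for Per2, 97.4% for Per3 and 96.6% for Arntl. Cry2 (0.39), Per1 (0.34), Cry1 (0.30) and Nr1d2 (0.24) were intermediate among the clock genes. Their values were larger than those of 84.5%, 81.2%, 77.6% and 70.1% of tested genes. Clock (0.14) and Nr1d1 (0.11) lay below that median. Among genes with a mean of 5 CPM or more the median was 0.12, with Nr1d1 below it and Clock above 65.6% of those genes. Cry2 lay above 97.8% of them, Per1 above 96.5% and Nr1d2 above 89.9%. Clock mRNA is known to keep a nearly flat level through the day in most mouse tissues. The 95% interval of the KO and WT difference ran from −0.84 to 0.70 for Arntl and from −0.85 to 1.06 for Per2, so a difference of the size of these SDs was not detectable with 4 animals per group.

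**Figure D3:**
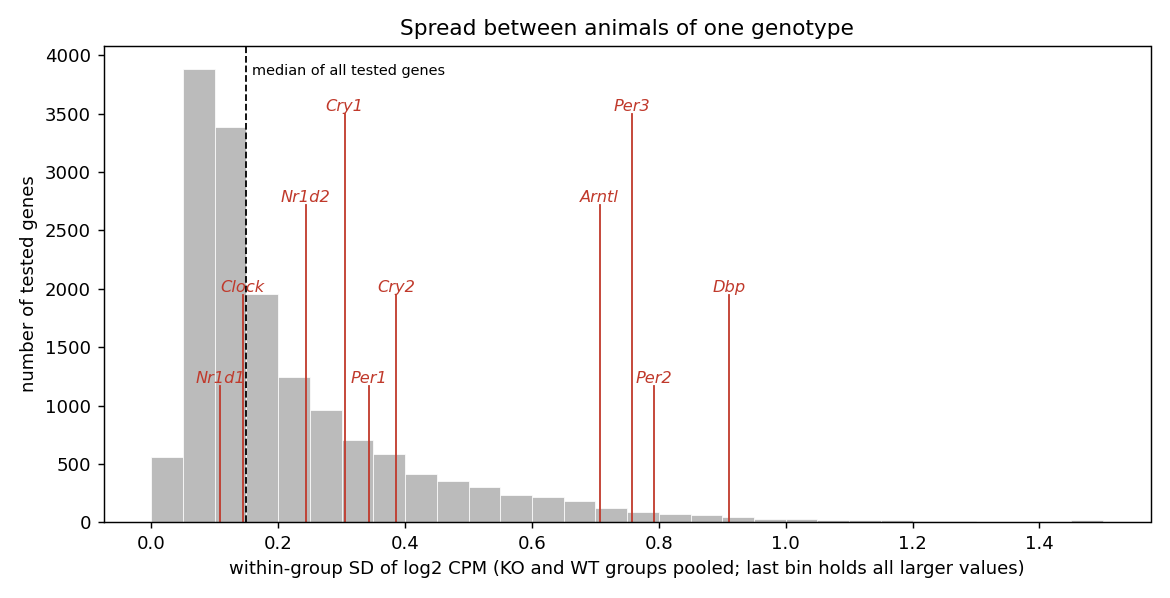
Number of tested genes (bars) by the SD of log2 CPM between animals of 1 genotype, KO and WT pooled; the dashed line is the median of all tested genes and red lines are the 10 clock genes. Dbp, Per2, Per3 and Arntl lie between 0.71 and 0.91, and Nr1d1 and Clock lie at 0.11 and 0.14, below the median of 0.15.

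The wide genes did not vary independently of each other. Within genotype, the deviations of Dbp over the 8 animals had a Pearson correlation of 0.98 with Per3, 0.98 with Nr1d2, 0.97 with Per2 and 0.91 with Cry2, and of −0.97 with Arntl and −0.75 with Clock. Nr1d1 (0.47) and Per1 (−0.27) followed Dbp loosely. These are descriptions over 8 animals with no test, and the values of 2 genes in an animal come from the same library and depth. Among the 11292 genes with a mean of 5 CPM or more, which leaves out Cry1, Per3 ranked 6, Nr1d2 ranked 7 and Per2 ranked 11 in likeness to Dbp, and Arntl ranked 10 from the bottom. Without KO replicate 4, a step added after seeing the data, the correlation with Dbp was 0.96 for Nr1d2, 0.95 for Per2, 0.94 for Per3, 0.92 for Cry2, −0.90 for Arntl, −0.98 for Clock, −0.77 for Per1 and −0.41 for Nr1d1. The sign for Nr1d1 thus rests on that animal. The ratio of Dbp to Arntl put the opposition in 1 number. It was 3.12, 1.49, 2.08 and 30.0 in KO, 132 in 129S2_SvPasCrl, 25.1 in DBA_2J, and 3.52, 2.16, 6.25 and 14.2 in WT.

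**Figure D4:**
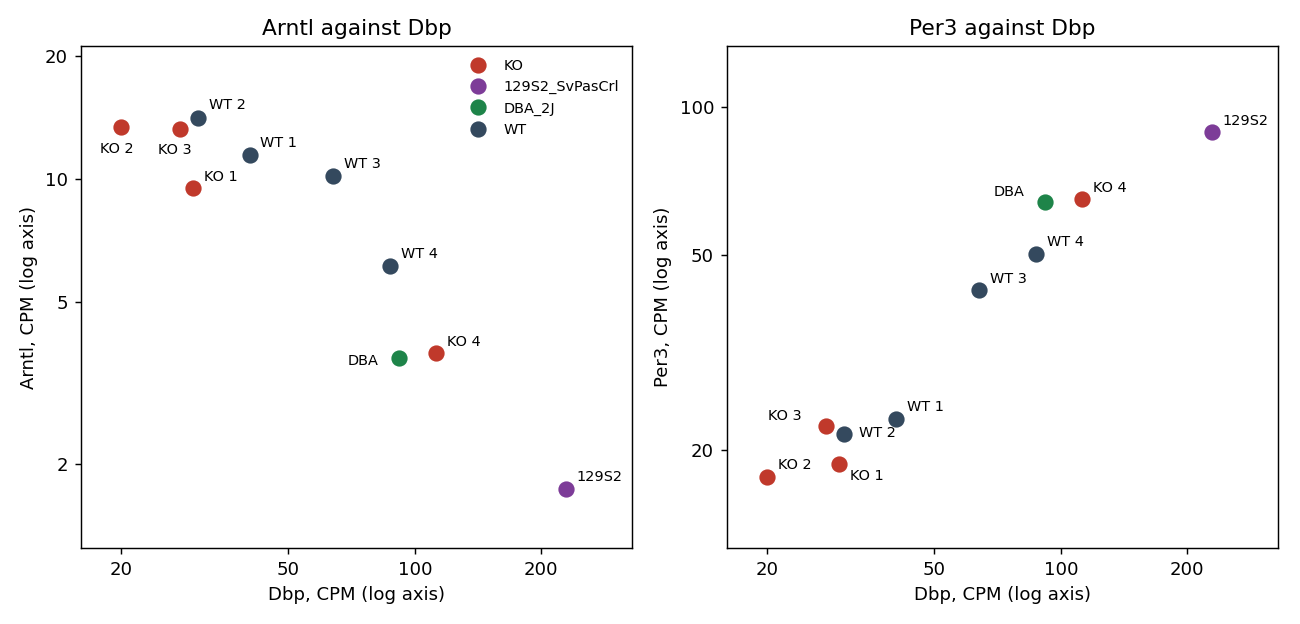
Arntl (left) and Per3 (right) against Dbp, CPM on log axes, 1 point per animal. Arntl falls and Per3 climbs along Dbp across both genotypes, and KO replicate 4 lies beside DBA_2J, away from the other 3 KO animals.

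Among the 6 genes most like Dbp by the same measure were Slc6a17, Gria3, Tef, Ddo and Per3, with correlations of 0.98 to 0.99, and the least like were Tnip2, Rab40c, Rchy1 and Il34. Of these Tef is a D-box factor of the same family as Dbp. The genes most like Arntl were Cerk, Psmc2, Kctd6, Ypel2, Cwc27 and Rab40c, and the least like were Polr1a, Slc26a2, Prrc2a and Mir8114, the last of which shares 97.3% of its bases with Glul. Rchy1 shares 187 exon bases with Thap6. Rab40c stood in both lists, at the opposite end from Dbp and at the same end as Arntl.

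Companions of the clock loop were taken from a list of 25 tested genes. In edgeR 2 were called between KO and WT, beside the 11.0% called of all tested genes: Rora, an activator of Arntl, was higher at 77.5 ± 6.16 CPM in KO against 64.0 ± 3.86 CPM in WT (log2 fold change 0.28, SE 0.07, adjusted p = 0.0293), and Fbxl21, a ubiquitin ligase subunit for CRY proteins, was lower (−0.44, SE 0.13, adjusted p = 0.0466). The edgeR call on Rora was lost without KO replicate 1 or 2 or WT replicate 1, 2 or 3 (adjusted p = 0.0607 to 0.0826). The edgeR call on Fbxl21 was lost without any single animal other than KO replicate 2, with an adjusted p of up to 0.141. The other 23 companions did not pass.

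Several of those companions, chosen here after their values were seen, varied between animals as their clock partners did. Npas2, which can stand in for Clock, read 10.3, 11.8, 15.3 and 3.15 CPM in KO, 3.34 CPM in 129S2_SvPasCrl, 4.27 CPM in DBA_2J, and 11.0, 18.3, 6.28 and 2.91 CPM in WT. Nfil3, the D-box repressor, read 10.6, 10.3, 8.11 and 3.76 CPM in KO, 4.67 CPM in 129S2_SvPasCrl, 3.39 CPM in DBA_2J, and 6.04, 8.48, 5.59 and 3.13 CPM in WT. Both were lowest in KO replicate 4 and WT replicate 4 within their groups, as Arntl was. Tef read 224, 216, 223 and 453 CPM in KO, 591 CPM in 129S2_SvPasCrl, 487 CPM in DBA_2J, and 277, 256, 332 and 409 CPM in WT. Hlf read 89.3, 92.4, 94.8 and 141 CPM in KO, 151 CPM in 129S2_SvPasCrl, 118 CPM in DBA_2J, and 101, 111, 117 and 127 CPM in WT. Ciart, a repressor of CLOCK and ARNTL, read 1.76, 2.67, 1.38 and 12.4 CPM in KO, 28.8 CPM in 129S2_SvPasCrl, 5.86 CPM in DBA_2J, and 4.11, 1.99, 4.19 and 7.37 CPM in WT. These 3 were highest in KO replicate 4 and WT replicate 4 within their groups, as Dbp was.

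The strain libraries are 1 animal each, so their differences from the WT mean are sizes without a test. In 129S2_SvPasCrl 4 of 10 clock genes lay more than 2-fold from the WT mean, where 9.78% of all tested genes did. Arntl was −2.50 away on the log2 scale, Per2 1.60, Per3 1.47 and Dbp 2.16. For 7 of 10 clock genes, beside 47.9% of all tested genes, the 129S2_SvPasCrl library lay outside the range of all 8 C57BL/6N animals, with Per2, Per3, Cry2, Nr1d1, Nr1d2 and Dbp above and Arntl below. In DBA_2J 3 of 10 clock genes lay more than 2-fold away, where 12.8% of all tested genes did: Arntl at −1.45, Per1 at −1.12 and Per2 at 1.10. Per3 at 0.997 fell just short of 2-fold, and Dbp and Nr1d2 at 0.84 lay inside it. The DBA_2J count was 1 without WT replicate 1 in the mean and 5 without WT replicate 4. DBA_2J lay outside the 8 animals for 4 of 10 clock genes, beside 56.8% of all tested genes, with Nr1d2 above and Arntl, Per1 and Cry1 below. Strain and the animal's own state cannot be told apart with 1 animal each.

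Genes of the fasting response, a list of 10, moved with the strain libraries. More than 2-fold below the WT mean lay 7 of 10 in 129S2_SvPasCrl, beside 5.97% of all tested genes, and 8 of 10 in DBA_2J, beside 8.23%. Pdk4, a fasting-induced kinase that spares glucose, read 211 to 612 CPM in KO, 15.5 CPM in 129S2_SvPasCrl, 14.3 CPM in DBA_2J and 225 to 492 CPM in WT. KO replicate 4, with its high Dbp, had the lowest Pdk4 of the 8 C57BL/6N animals at 211 CPM, still far above both strain libraries. The part of feeding in the clock genes' levels was not tested.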

How the data were processed

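Kidney RNA of 10 animals was read from 1 end after polyA capture, per the labels' protocols. STAR, featureCounts and edgeR and the build mm10 (GRCm38) are named in the submitters' processing notes. Counting was done with featureCounts 1.5.2 on primary alignments and exons, without a strand option, per the file headers, and gave a read that overlapped several genes to each. The authors deposited raw counts per gene, singly and as a matrix, equal in all 10 columns. They also deposited a log2 table, which held all 10 clock genes and was not used for tests. No column of per-sample values was left out (0 columns).

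Tests used edgeR 4.0.16 (in R 4.3.3, limma 3.58.1) on counts of the 4 KO and 4 WT libraries, after filterByExpr and with TMM scaling, by its quasi-likelihood method (glmQLFTest), with Benjamini-Hochberg adjustment over 15547 genes and calls at an adjusted p under 0.05. The SE is the log2 fold change divided by the square root of F. CPM and RPKM used TMM factors over all 10 libraries, and lengths come from the count tables. The biological coefficient of variation was 12.3%. Every pair of libraries within a group differed by more than sampling noise (smallest chi-square over its degrees of freedom 10.9). At 19.8 M counts, the smallest depth, a gene at 1 CPM has about 20 counts. The test was checked on simulated counts. Strain libraries were compared with the WT mean by size (log2 CPM, prior count 2). Alternatives were upper-quartile scaling, DESeq2 1.42.0, no filter, title form as a term, each title form alone, thinning to the smallest depth (seed 1), a prior count of 0.5 and each library left out in turn.

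The clock genes, lists, tests and alternatives were chosen with earlier results of these data known. Named genes are the 10 clock genes, Ehhadh, up to 6 called genes of smallest p per list, and for Arntl and Dbp the 6 most and 4 least correlated genes at 5 CPM or more. Npas2, Nfil3, Tef, Hlf, Ciart, Sphk2, Arntl2, Pdk4 and other genes shown for their levels were chosen after their values were seen. Of the called genes on lists other than the companions, those whose call survived every fit with 1 library left out are named. Marker genes, Aqp2 and Slc12a3 among them, are named as parts of the marker sums. Replicate numbers follow accession order. Promoter windows come from RefSeq (GRCm38.p6). Some genes that these rules pick are not reported here.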

Additional observations from a re-analysis of the deposited data

Results flagged for a closer look

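Among 68 checks of whether 1 animal stood far from the other 3 of its group (34 genes, from the clock genes and their companions), 10 met the limit. Chance gives about 1 in 20 for a single check. Genes that vary together in the same animals are not separate checks, so the counts cannot be weighed against that rate. For the 10 clock genes 5 of 20 checks met the limit. All 5 were high values of KO replicate 4, with 71.0 CPM of Per2, 64.9 CPM of Per3, 31.1 CPM of Cry2, 131 CPM of Nr1d2 and 112 CPM of Dbp. The same animal was far above the other KO animals for the D-box factors Tef (453 CPM) and Hlf (141 CPM) and the repressor Ciart (12.4 CPM). Its Arntl, at 3.74 CPM, was lowest without meeting the limit. It also had the highest summed injured tubule markers of all libraries, and their part in its clock gene levels was not tested. Most of that sum was Havcr1, at 75.1 CPM. For Lcn2 the animal ranked 2 and for Krt20 it ranked 3 among the 10 libraries. WT replicate 1, the shallowest library, met the limit as the highest WT animal for Arntl2 (2.18 CPM) and Gsk3b (49.8 CPM). The check weighs a gap against the range of its group, so a small difference can meet the limit. The WT animals spanned only 1.06-fold for Gsk3b, from 47.2 to 49.8 CPM, and 1.57-fold for Arntl2.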

How the results depend on the processing

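No paired analysis was possible because replicate numbers were given in accession order and match no animals across genotypes. The count of clock genes called between KO and WT (0) was 1 with DESeq2, with title form as a term and within titles with the E, and 0 to 1 with 1 library left out. The companion count (2) was 1 without a filter, 0 within titles with the E, 1 after thinning and 0 to 3 with 1 library left out. The title form count (0) was 1 with DESeq2, 3 without a filter and 0 to 4 with 1 library left out, and the interaction count (0) was 1 with DESeq2. The DBA_2J count (3) ran from 1 to 5, and the 129S2_SvPasCrl count (4) stayed within 1.5 times under every alternative run. The cause was not tested.

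Signs of uncalled log2 fold changes turned within titles with the E for Arntl (0.049) and Nr1d1 (0.073), within titles without it for Cry1 (0.31) and Cry2 (0.042), and after thinning for Nr1d1 (0.0023). With 1 library left out the range was −0.26 to 0.21 for Arntl, −0.52 to 0.54 for Per2, −0.82 to 0.084 for Per3, −0.20 to 0.093 for Cry1, −0.093 to 0.015 for Nr1d1, −0.036 to 0.21 for Nr1d2 and −1.11 to 0.073 for Dbp. The title form difference of Nr1d1 ran from −0.10 to 0.021, and its correlation with Dbp was −0.41 without KO replicate 4. Over all genes, the KO and WT calls (1710) ran from 1005 without KO replicate 1 to 1638 without KO replicate 4 and were 143 within titles with the E. The title form calls (3) were 12 with upper-quartile scaling, 249 with DESeq2, 187 without a filter and 0 to 140 with 1 library left out. Depth limits Cry1 most. With 4 animals per group and no collection hour, differences smaller than the intervals given were not detectable.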

Other observations

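Genes that the clock or its daily cues are known to drive were read from lists of tested genes, with KO set against WT in edgeR, where 11.0% of all tested genes were called. Of 15 kidney genes with known rhythms 7 were called, 1 higher and 6 lower in KO. Among these the vasopressin receptor Avpr2 read 14.6 to 17.8 CPM in KO and 20.9 to 26.3 CPM in WT (log2 fold change −0.46, adjusted p = 0.00990), and the potassium channel Kcnj1 read 90.2 to 121 CPM in KO and 132 to 164 CPM in WT (−0.48, adjusted p = 0.0137). Summed collecting duct markers were 172 to 191 CPM in KO and 243 to 536 CPM in WT. Distal tubule sums were also lower, at 762 to 963 CPM in KO and 996 to 1292.5 CPM in WT. These sums are not separate from the 7 calls, because Aqp2 and Slc12a3 are among the called genes and make up most of the WT sums. Of the other collecting duct markers, Scnn1g read 29.8 to 36.6 CPM in KO and 48.5 to 56.0 CPM in WT. Atp6v1g3 read 23.8 to 26.4 CPM in KO and 35.6 to 42.8 CPM in WT. The distal marker Pvalb overlapped, at 11.9 to 21.6 CPM in KO and 16.6 to 26.2 CPM in WT. Thick limb sums overlapped, at 1887.5 to 2907 CPM in KO and 2217 to 2636 CPM in WT, but their markers differed. Umod, most of the sum, read 1435 to 2231 CPM in KO and 1483 to 1917 CPM in WT. Slc12a1 was lower, at 452 to 676 CPM in KO and 685 to 760 CPM in WT (log2 fold change −0.44, edgeR adjusted p = 0.0264). The part of these nephron segments in the 7 calls was not tested. Of 12 glucocorticoid response genes 3 were called higher in KO and 0 lower, among them the metallothionein Mt1 at 190 to 242 CPM in KO and 110 to 148 CPM in WT (0.73, edgeR adjusted p = 0.00187). Of 9 temperature response genes 1 was called, about the share of all genes, the cold-inducible Rbm3, at 107 to 143 CPM in KO and 87.6 to 104 CPM in WT (0.40, edgeR adjusted p = 0.0161). Avpr2 shares 77 exon bases with Arhgap4 and Rbm3 shares 94 with Rbm3os, so some of their reads are uncertain. Of 18 other rhythmic output genes 1 was called higher in KO, and of 10 fasting response genes 1 was called higher and 2 lower. Avpr2, Kcnj1, Mt1 and Rbm3 are the 4 genes named for their calls, because these were kept in each of the 8 fits with 1 library left out. Within titles with the E none of the 4 was called in edgeR (adjusted p of 0.141 for Avpr2, 0.110 for Kcnj1, 0.0864 for Mt1 and 0.177 for Rbm3), and the log2 fold change of Mt1 was 0.42 there and 1.04 within titles without the E.

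Arntl2, a relative of Arntl that is usually low in kidney, read 1.66 to 1.75 CPM in KO, 9.95 CPM in 129S2_SvPasCrl, 11.5 CPM in DBA_2J and 1.39 to 2.18 CPM in WT. It was thus high in both strain libraries, where Arntl was low, and read 1.75 CPM in KO replicate 4. The heat shock gene Hspa1b read 47.4 to 61.1 CPM in KO, 238 CPM in 129S2_SvPasCrl, 86.5 CPM in DBA_2J and 39.6 to 82.4 CPM in WT.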
